A study of Mus musculus with 26 samples.

Results

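The genes described here are 10 genes known as markers of Muller glia, measured in 26 single cells of the mouse retina labelled as amacrine cells. They are Glul, Dkk3, Car2, Vim, Clu, Rlbp1, Cp, Apoe, Aqp4 and Slc1a3, chosen by name out of 18193 genes on the Affymetrix Mouse 430 2.0 array. Together they had 31 probe sets, and the probe set whose log2 signal averaged highest in the 26 cells stood for its gene. Signals from 1000 upward, which is 2 times the scaled mean of every array, counted as detection.

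Muller glia are the radial glial cells that span the retina. They take up glutamate and convert it to glutamine, recycle retinoid for cones, regulate potassium, water and pH, and carry intermediate filaments. They arise late from the same progenitors as rods, bipolar cells and some amacrine cells, and many of their genes are already active in those progenitors. Amacrine cells, by contrast, are neurons, most of which release GABA or glycine onto other cells of the inner retina.

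Each cell was picked by hand from a papain-dissociated retina by the fluorescence of GFP, driven from the Ndrg4 promoter (pNdrg4) or the Synapsin promoter (pSynapsin), and its cDNA was amplified by 35 PCR cycles. The series' text places the electroporation of the reporters at birth, in vivo or ex vivo, and the promoters and the picking decided which cells were sampled. For the cell labelled E19 the stated culture reaches back before birth, so the time of its electroporation is not settled by the labels. There was 1 pSynapsin cell labelled E19 (B1) and there were 2 pNdrg4 cells labelled P4 (A3 and B4), and their retinas had been kept in culture for 4 days. The P5 cells comprised 4 pSynapsin cells (E1 to E4) and 5 pNdrg4 cells (C1, C6, D3, D5 and D6) after 5 days of culture, and 10 pNdrg4 cells (A1, A2, A5 to A8 and B1 to B4) whose labels state no culture. At P8 there were 2 pSynapsin cells (B3 and B4) and 2 pNdrg4 cells (A1 and A2) after 8 days of culture. The labels name no mutant allele or drug, and no strain, animal or retina. Each group therefore counted as 1 sample, SDs over cells describe spread only, and no p-value was computed.

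The cells were checked against 12 amacrine genes. Pax6, a transcription factor of amacrine cells that Muller glia and progenitors also carry, was detected in 26 of 26 cells, Slc32a1, which loads GABA and glycine into vesicles, in 22 and Tfap2b in 20. The others were Tfap2a in 16 cells, Gad2 and Slc6a9 in 14 each, Dab1 in 13 and Meis2 in 12. Gad1 was detected in 11, Barhl2 in 10, Calb2 in 9 and Neurod4 in 7. Each cell had 4 to 10 of the 12 genes and 1909 to 4180 detected genes in all. Genes of other cell types were also present, in particular rod genes, of which single cells had 0 to 9 of 13. Microglial genes were nearly absent, with 9 of 10 (among them Aif1, C1qa and Cx3cr1) detected in no cell, as were astrocyte genes, with S100b, Aldh1l1, Gja1 and Pdgfra detected in no cell.

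The promoters of 3 of the genes are shown, those of Glul, the member detected in the most cells, and those of Vim, whose detection differed most between the P5 pNdrg4 groups, and Rlbp1, 4 of whose 5 cells also had Vim. The sequences are the 250 bases before a transcription start, from RefSeq (GRCm38.p6), read 5′ to 3′ on the strand of the gene. Capitals mark matches on either strand to the GC box GGGCGG, to CCAAT and to the TATA-type motif TATAAA.
Glul, chr1:153899679-153899928, plus strand: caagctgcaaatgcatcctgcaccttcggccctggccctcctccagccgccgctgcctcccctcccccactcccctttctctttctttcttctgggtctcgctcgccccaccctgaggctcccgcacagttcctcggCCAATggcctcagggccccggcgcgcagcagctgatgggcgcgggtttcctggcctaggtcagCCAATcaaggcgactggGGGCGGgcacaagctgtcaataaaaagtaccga
Vim, chr2:13574061-13574310, plus strand: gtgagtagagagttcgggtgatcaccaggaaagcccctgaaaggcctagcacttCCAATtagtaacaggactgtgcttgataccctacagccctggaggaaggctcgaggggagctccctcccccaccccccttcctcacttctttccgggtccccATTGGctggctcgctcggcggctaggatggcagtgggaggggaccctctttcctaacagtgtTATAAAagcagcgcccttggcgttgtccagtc
Rlbp1, chr7:79387028-79387277, minus strand: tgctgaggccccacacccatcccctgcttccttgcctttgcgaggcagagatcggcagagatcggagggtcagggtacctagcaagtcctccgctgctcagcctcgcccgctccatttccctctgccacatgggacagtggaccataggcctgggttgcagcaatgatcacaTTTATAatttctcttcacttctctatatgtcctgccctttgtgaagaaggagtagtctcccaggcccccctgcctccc

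The Glul promoter held 2 CCAAT matches and 1 GC box, which starts 33 bases before the transcription start. The Vim promoter held 2 CCAAT matches and 1 TATAAA, 32 bases before the start. The Rlbp1 window held 1 TATA-type match, on the opposite strand 78 bases before the start, and no match to either other motif. The start used for Rlbp1 lies within the annotated span of the gene (chr7:79374865-79392250). Over 32851 promoters of this length, 32.7% held the GC box, 33.8% CCAAT and 12.4% TATAAA on either strand. The motifs do not overlap each other here, and a match describes the letters only.

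The 10 genes fell into 3 that were common in these cells, 4 found in a minority and 3 that were absent or nearly so. Glul was detected in 18 of 26 cells (69.2%, exact Clopper-Pearson 95% interval 48.2% to 85.7%), Dkk3 in 16 (61.5%, 40.6% to 79.8%) and Car2 in 14 (53.8%, 33.4% to 73.4%). Vim was detected in 11 cells (42.3%, 23.4% to 63.1%), Clu in 7 (26.9%, 11.6% to 47.8%), Rlbp1 in 5 (19.2%, 6.55% to 39.4%) and Cp in 4 (15.4%, 4.36% to 34.9%). Slc1a3 was detected in 1 cell, and Apoe and Aqp4 in 0 of 26 cells, for which the same interval has an upper limit of 13.2%. The intervals and that limit cover counting error only. They treat the 26 cells as independent draws at a common rate, though the groups differ in age, reporter and culture. In all there were 76 detections among 260 pairs of gene and cell, or 29.2%, against 16.6% over all genes of the array. The members were chosen with earlier results of these data known, so the shares are set side by side only. Detection in at least 14 cells, as Glul, Dkk3 and Car2 had, was reached by 10.3% of all genes, detection in at least 4 cells by 36.7%, and detection in at least 1 cell by 55.9%.

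**Figure D1:**
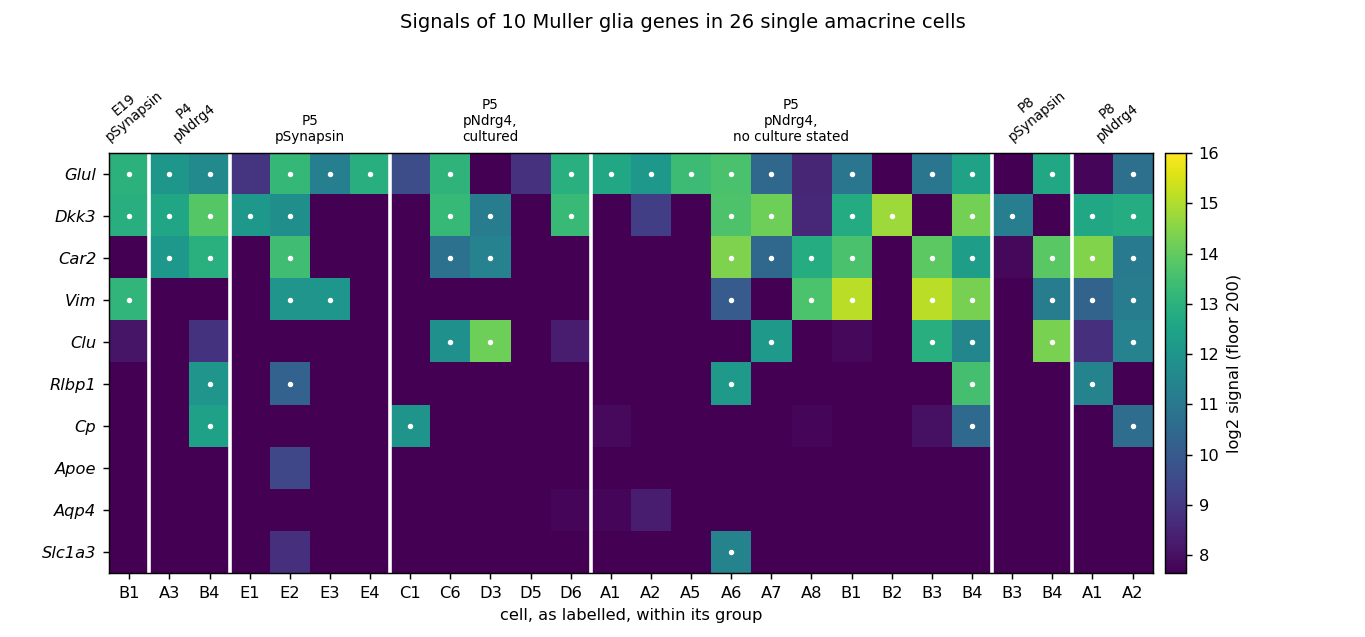
Log2 signal (floor 200, colour) of the 10 genes (rows) in each of the 26 cells (columns, by group), with a white dot where the signal was at least 1000. Glul, Dkk3 and Car2 were spread over most groups, while Apoe and Aqp4 had no dot and Slc1a3 had 1.

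Among the genes of glutamate handling, Glul encodes glutamine synthetase, which turns glutamate taken up by glia into glutamine. Its signal was 8225 in the E19 cell, and 4283 and 3126 in P4 cells A3 and B4. The P5 pSynapsin cells had 483, 9536, 2448 and 7574, and the cultured P5 pNdrg4 cells 794, 8723, 3, 455 and 7831. In the P5 pNdrg4 cells with no stated culture it ran from 92 over a median of 3180 to 12317 (A6), with 8 of 10 cells detected. The P8 cells had 200 and 6379 (pSynapsin) and 218 and 1706 (pNdrg4). High and low cells thus stood side by side in every group with more than 2 cells, and all these groups overlapped. By mean log2 signal over cells the groups ran from 13.01 in the single E19 cell, 11.84 ± 0.32 at P4 and 11.57 ± 1.97 in P5 pSynapsin cells to 11.27 ± 1.98 in P5 pNdrg4 cells with no stated culture, 10.43 ± 2.47 in cultured ones, 10.14 ± 3.53 in P8 pSynapsin and 9.25 ± 2.10 in P8 pNdrg4 cells (SD over cells). Only the step from the E19 cell to the P4 cells was larger than the SD of the lower group, and it rests on 1 cell.

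Glul's other probe set gave another picture. It was detected in 4 cells only, all P5 pNdrg4 cells with no stated culture, at 30368 in A2, 1886 in A5, 11585 in A8 and 7146 in B4. Cell A8 had 369 on the chosen probe set and so counts as not detected there. In 15 of the 18 cells detected on the chosen probe set the other was below the detection level, and the cause was not tested.

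Slc1a3 encodes GLAST, the main glutamate transporter of Muller glia. Its signal was 2638 in A6, a P5 pNdrg4 cell with no stated culture, and at most 443 (E2) in the other 25 cells. Of its 6 probe sets 3 were detected in 1 cell each, a different one each time (A6, D6 at 1625 and D3 at 1154). Among 8 other measured genes of glutamate and glutamine handling 6 were detected in at least 1 cell. The glutamine transporter genes Slc38a1 and Slc38a2 had 21 and 12 cells.

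Car2 encodes carbonic anhydrase 2, an enzyme of carbon dioxide and bicarbonate exchange. It left a gap between cells: 14 had at least 1401, and the highest of the other 12 had 229. Its signals were 4393 and 7894 at P4, 1764 and 2604 in the cultured P5 pNdrg4 cells C6 and D3, 11033 in P5 pSynapsin cell E2, 15014 in P8 pSynapsin cell B4, and 22018 and 2142 in the P8 pNdrg4 cells. In the P5 pNdrg4 cells with no stated culture it was detected in 6 of 10, at 1401 to 21368, and the median of all 10 was 3297. It was below the detection level in the E19 cell (105). Its pattern crossed groups, with 3 of 4 P5 pSynapsin cells at 148 or less. Of 9 other genes of carbonic anhydrases and bicarbonate transport, 4 were detected in at least 1 cell and 0 in 8 or more.

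Dkk3 encodes a secreted glycoprotein of the Dickkopf family, other members of which inhibit Wnt signals. Its signal was 7594 at E19, 5996 and 14130 at P4, 6294 and 7235 in P8 pNdrg4 cells, and 2374 and 55 in P8 pSynapsin cells B3 and B4. The P5 pSynapsin cells had 4432, 3607, 99 and 63, and the cultured P5 pNdrg4 cells 49, 9687, 2270, 49 and 9961. In the cells with no stated culture it ran from 65 over a median of 3840 to 28061 (B2). Dkk3 was thus present in both cells of both small pNdrg4 groups and in a part of each larger group. Its other probe set was detected in 11 cells, 10 of which were also detected on the chosen one. Of 8 other Dickkopf, Sfrp and related Wnt modulator genes, Sfrp1 was the only one detected, in 3 cells (it is named after its values were seen), with Dkk1, Dkk2, Sfrp2 and Wif1 among those detected in none.

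Vim encodes vimentin, the intermediate filament protein of Muller glia and of retinal progenitors. The 3 highest cells were all P5 pNdrg4 cells with no stated culture, B3 at 36153, B1 at 35745 and B4 at 20156. In that group A8 had 12726, A6 had 1046 and the other 5 cells at most 149. The E19 cell had 9130, P5 pSynapsin cells E2 and E3 had 4086 and 4192, P8 pSynapsin cell B4 had 2260, and P8 pNdrg4 cells A1 and A2 had 1270 and 2304. All 5 cultured P5 pNdrg4 cells (3 to 127) and both P4 cells (40 and 151) were below the floor. No cell lay between 151 and 1046, so Vim too left a gap, and its detected cells ran from 1046 to 36153. The second of its 3 probe sets was detected in 10 of the same 11 cells and the third in 5 of them. Of 9 other intermediate filament genes 6 were detected somewhere. Ina, which encodes a neuronal filament protein, was detected in 25 cells, and Gfap, the glial filament gene of astrocytes and stressed Muller glia, only in A6 (5166), the cell that also had Slc1a3. Gfap is named for that cell, after its values were seen.

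**Figure D2:**
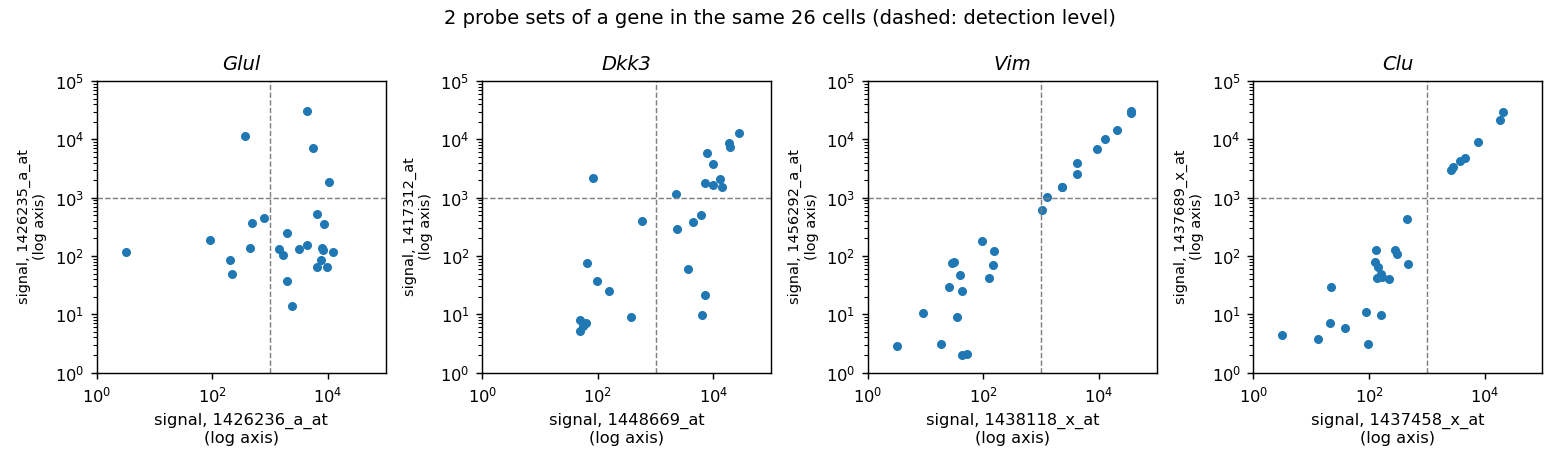
Signals of the chosen probe set (x axis, log scale) and the other probe set detected in the most cells (y axis, log scale) of Glul, Dkk3, Vim and Clu in the same 26 cells. For Vim and Clu the detected cells lie along 1 line, while most Glul cells detected on the chosen probe set lie below the dashed detection level on the other.

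Clu and Apoe both encode secreted lipid-binding chaperones or carriers made by glia. Clu (clusterin) had 20598 in P8 pSynapsin cell B4, 18140 and 3691 in cultured P5 pNdrg4 cells D3 and C6, 7550, 4485 and 2882 in B3, A7 and B4 among those with no stated culture, and 2601 in P8 pNdrg4 cell A2. The other 19 cells had at most 471, and all 4 P5 pSynapsin cells (38 to 160) were below the floor. Its 4 probe sets were detected in 7, 7, 7 and 6 cells, all among the same 7. Apoe, apolipoprotein E, had 683 in E2 and at most 181 in the other 25 cells. Of 9 other lipoprotein and lipid transport genes 6 were detected in at least 4 cells, among them the receptor genes Lrp1 in 16 and Vldlr in 10, Pltp in 12 and the transporter gene Abca1 in 9.

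Rlbp1 encodes the retinaldehyde-binding protein CRALBP, which carries retinoid in Muller glia and pigment epithelium. Its signal was 11844 in B4 and 4533 in A6 among the P5 cells with no stated culture, 4058 in P4 cell B4, 2664 in P8 pNdrg4 cell A1 and 1238 in P5 pSynapsin cell E2. The other 21 cells had at most 125. Each of 4 groups thus had at least 1 Rlbp1 cell, and the E19, cultured P5 pNdrg4 and P8 pSynapsin groups had none. Of 9 other retinoid genes 5 were detected in at least 1 cell and 0 in 8 or more. Rpe65 and 6 other of 8 pigment epithelium genes were detected in no cell.

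Cp encodes ceruloplasmin, a copper-carrying ferroxidase. It had 5448 in P4 cell B4, 4007 in cultured P5 pNdrg4 cell C1, 1573 in P8 pNdrg4 cell A2 and 1437 in B4 among those with no stated culture. All 4 rest on 1 of its 8 probe sets, and the other 7 were detected in no cell. Other genes of iron, copper and oxidant defence were more common, with the ferritin gene Fth1 in 23 cells, the transferrin receptor gene Tfrc in 13 and the metallothionein gene Mt1 in 8.

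Aqp4 encodes the water channel of Muller glial endfeet. Its highest signal was 314 (A2), and none of its 3 probe sets was detected in any cell. Kcnj10, the potassium channel of the same endfeet, Aqp1 and Mlc1 were likewise detected in no cell, while Dag1, the dystroglycan gene, was detected in 12.

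Some cells held many of the members and others few. Cell B4 with no stated culture had 7 of the 10, A6 and P8 pNdrg4 cell A2 had 6, and P4 cell B4 and P5 pSynapsin cell E2 had 5. At the other end D5, a cultured P5 pNdrg4 cell, had 0 and 8 cells had 1. In all 14 cells had 3 or more. All 5 Rlbp1 cells also had Car2 and Dkk3, and 4 of them had Vim. All 7 Clu cells had Car2. Car2 and Vim were detected together in 9 cells, and Vim without Car2 in 2.

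Over the 26 cells, the log2 signals of Car2 correlated with those of Vim at Pearson r = 0.54 and with Rlbp1 at 0.53, while Glul and Dkk3 gave -0.03. The median over the 21 pairs of the 7 members detected in at least 4 cells was 0.12, with 18 pairs above 0, and that over all pairs of 6676 genes detected as often was 0.02. Each value describes 26 cells that share an amplification and array per cell, so genes of a cell share its quality. Of the amacrine genes, Tfap2b was detected in 13 of the 14 Car2 cells, 14 of the 18 Glul cells and 9 of the 11 Vim cells, against 20 of all 26 cells. Gad2, a gene of GABA synthesis, was detected in 8 of the 14 Car2 cells, 7 of the 18 Glul cells and 4 of the 11 Vim cells, against 14 of all 26. In the same order Gad1, also of GABA synthesis, had 7, 9 and 4 cells, against 11 of all 26. Slc6a9 had 8, 8 and 8, against 14, and Slc32a1 had 12, 15 and 8, against 22.

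The number of members in a cell was set beside other gene lists. Over 26 cells it correlated with the number of detected genes from 25 other Muller glia genes at r = 0.56, with 13 rod genes at 0.56, with 10 progenitor and cell cycle genes at 0.50, with 8 bipolar genes at 0.48, with 12 amacrine genes at 0.18 and with all detected genes at 0.10. Without B1 and B4 of the P5 group with no stated culture, the values were 0.42 for other Muller glia genes, 0.53 for rod genes, 0.25 for progenitor and cell cycle genes and 0.24 for amacrine genes. Of the cells with 5 or more members, P8 pNdrg4 cell A2 had 9 rod genes, E2 had 8, B4 had 6 and A6 had 4, but P4 cell B4 had 1. Cells with 4 members had 1 to 9 rod genes and cells with 1 member 0 to 5. The P8 cells had 3 to 9, and age was not separated in these correlations. The part of other cells' RNA in the detection of the members was not tested.

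**Figure D3:**
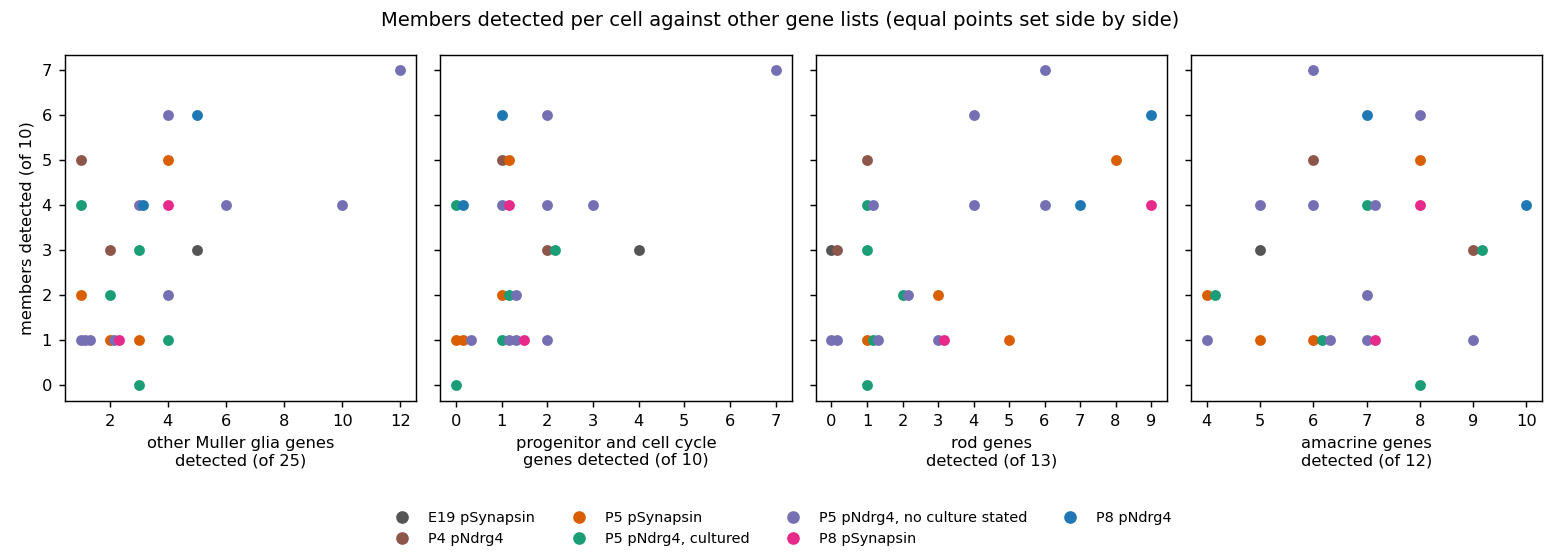
Members detected per cell (y axis, of 10) against the number detected of 25 other Muller glia, 10 progenitor and cell cycle, 13 rod and 12 amacrine genes (x axes), 1 point per cell, coloured by group. The cell with 7 members is also the one with 12 other Muller glia genes and 7 progenitor and cell cycle genes.

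Of the 25 other Muller glia genes 18 were detected in at least 1 cell. Dbi, which encodes the diazepam-binding inhibitor, was detected in 18 cells, Gpr37 in 10, Ptn in 9 and Spon1 in 8. Hes1, Nr2e1, Notch1, Abca8a, Cd44, Timp3 and Crb1 were detected in none. A few cells held most of the rest, and the genes named next were chosen after their values were seen. B4 had 12 of the 25, among them Sox2 (13185), Hes5, Id1 and Id3, together with 7 of 10 progenitor and cell cycle genes, among them the proliferation gene Mki67 (19686), which was detected in no other cell, and Top2a. B1 had 10, with Sox2 at 34320, Rax at 7618, and Sox8 and Sox9, which were detected in no other cell. B3 had 6, with Sox2 at 17635 and the cyclin gene Ccnd1 at 36648. Sox2, a transcription factor of progenitors and Muller glia that some amacrine cells keep, was detected in 4 cells, all with Vim. Cells B1, B4 and B3 also had 7, 6 and 5 amacrine genes and 4, 6 and 6 rod genes. Whether these cells are amacrine cells, as labelled, was not tested. In B4 the amacrine genes detected were Pax6, Gad2, Slc6a9, Slc32a1, Calb2 and Neurod4. Tfap2a, Tfap2b, Gad1, Meis2, Barhl2 and Dab1 were below the detection level there. The cultured E19 cell had 5 of the 25 other Muller glia genes and 4 of the 10 progenitor and cell cycle genes. Its Top2a (8359) and Id3 (12590) signals were the highest of all cells.

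**Figure D4:**
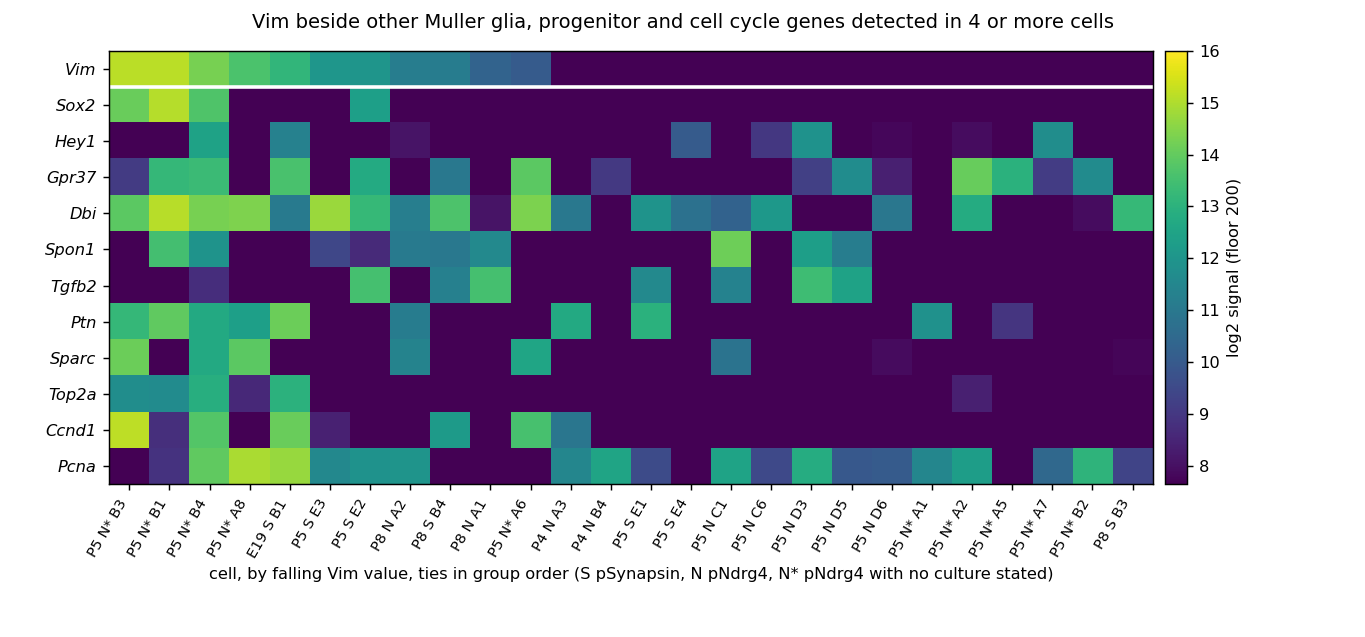
Log2 signal (floor 200, colour) of Vim (top row) and of other Muller glia, progenitor and cell cycle genes detected in at least 4 cells, with the 26 cells (columns) ordered by Vim. Sox2 and Top2a are bright only in cells on the left that had Vim, while Pcna is spread over cells with and without it.

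The genes with the most similar log2 signals over the 26 cells, among 6676 genes detected in at least 4 cells, were taken for each of the 7 members. For Vim they were Ndrg1 (Pearson r = 0.78, both detected in 10 cells), Top2a (0.75, both in 4) and Zfp12 (0.72). For Car2 they were Prkar2b (0.73, both in 12), Tmem106c (0.65) and Gas1 (0.64). For Glul they were Zfp821 (0.63), Dnajc15 (0.58) and Dynll2 (0.58), and for Dkk3 Csrp2 (0.63), Tax1bp1 (0.63) and Gnai2 (0.58). Clu had Dpp3 (0.70), Hbp1 (0.69) and Bms1 (0.68), Rlbp1 had Dxo (0.78), Rfwd3 (0.73) and Gnai2 (0.73), and Cp had Mtres1 (0.77), Czib (0.76) and Slc9a5 (0.71). None of these is on the list of 25 other Muller glia genes, and Top2a is on the progenitor and cell cycle list. With 26 points and 6676 candidates these are ranks and no more.

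Group differences are given as differences of mean log2 signal, with signals below 200 raised to 200 (7.64 on the log2 scale), and a difference of at least 1 in size is counted. The 7 members detected in at least 2 cells entered, of 8570 genes, and Apoe, Aqp4 and Slc1a3 did not. The cultured P5 pNdrg4 cells serve in the culture, reporter and age comparisons, which therefore share cells.

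Between cultured P5 pNdrg4 cells and those with no stated culture, Vim had the widest difference of the 7 members, with 0 of 5 cultured cells detected and 5 of 10 of the others. Its mean log2 signal was 7.64 (all at the floor) in cultured cells and 10.65 ± 3.46 in the others, a difference of -3.00 that is smaller than the SD of the others, and the groups overlap at the floor. Car2 had 9.01 ± 1.88 in cultured cells and 10.81 ± 2.92 in the others (-1.80), and Rlbp1 7.64 in cultured cells and 8.68 ± 2.21 in the others (-1.04). Rlbp1's difference was -0.65 without A6 and -0.50 without B4. The other members had smaller differences that single cells moved past 1 or across 0. Glul differed by -0.84, and by -1.51 without C6, -1.47 without D6, -1.24 without B2, -1.14 without A8, -0.44 without D5 and -0.14 without D3. Dkk3 differed by -0.44, and by 0.29 without C1 or D5, -1.11 without C6 and -1.12 without D6. Clu differed by 0.89, and by -0.17 without D3 and up to 1.46 without C1 or D5. Cp differed by 0.51, and by -0.35 without C1.

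Of the 7 members 3 were lower by at least 1 in cultured cells and 0 higher, against 9.05% of all 8570 genes lower and 26.5% higher (35.6% in either direction). The cultured cells had 3049 to 3925 detected genes each and the others 1909 to 3513, on arrays scaled to the same mean. The part of this in the differences was not tested. The members' median difference was -0.84 (-1.15 to -0.44 with single cells left out), against 0.31 over all genes, but with group medians in place of means both were 0. Of the other Muller glia genes detected in at least 8 cells, Ptn differed by -2.72, Gpr37 by -2.34 and Dbi by -1.85, and Spon1 by 1.93. Single cells had 1 to 4 of 25 other Muller glia genes after culture, with a summed signal of 7070 to 24637, and 1 to 12 of 25 with no stated culture, with 6024 to 152130. They had 1 to 2 rod genes after culture and 0 to 6 with no stated culture, and 0 to 2 progenitor and cell cycle genes after culture and 0 to 7 with no stated culture. The part of these genes' cells of origin in the difference was not tested.

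Between P5 pSynapsin and cultured P5 pNdrg4 cells, the members went in different directions. Vim was detected in 2 of 4 pSynapsin cells and 0 of 5 pNdrg4 cells (means 9.83 ± 2.52 and 7.64, difference 2.19, or 1.45 without E3). Clu was detected in 0 of 4 pSynapsin and 2 of 5 pNdrg4 cells (7.64 and 9.91 ± 2.94, difference -2.27, or -1.21 without D3). Glul's difference was 1.14, with 3 of 4 pSynapsin and 2 of 5 pNdrg4 cells detected, and it lay between 0.45 and 2.03 when single cells were left out, below 1 without E2, E4, C1, D3 or D5. Dkk3 differed by -0.79 (-1.56 without E1, -1.52 without C1 or D5, -1.46 without E2 and -0.07 without E3 or E4). Car2 differed by 0.08 and by -1.37 without E2, Rlbp1 by 0.66 and by 0 without E2, and Cp by -0.86, by 0 without C1 and by -1.08 without C6, D3, D5 or D6. Thus 2 members were higher and 1 lower by at least 1, against 20.7% and 18.0% of all genes (38.6% in either direction). All groups overlapped. Of the 5 rod genes detected in at least 8 cells, the differences ran from 1.71 for Crx to 3.36 for Sag, with 1 to 8 rod genes per pSynapsin cell and 1 to 2 per pNdrg4 cell, and their part in the members' differences was not tested.

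At P8, with 2 cells per reporter, Dkk3 had 2374 and 55 in pSynapsin cells and 6294 and 7235 in pNdrg4 cells (difference -3.29, or -5.08 without B3 and -1.51 without B4). Of the 7 members 5 were lower and 0 higher by at least 1, but 24.7% of all genes were lower and 25.1% higher (49.8% in either direction) in this comparison of 4 cells. Rlbp1 (-1.87) and Cp (-1.49) each rest on 1 pNdrg4 cell, and the difference was 0 for Rlbp1 without A1 and 0 for Cp without A2. Glul (0.89) ran from -1.61 without B4 to 3.39 without B3, and Clu (0.91) from -2.44 without B4 to 4.25 without B3. Without pSynapsin cell B3, in which Dkk3 was the only member detected, Car2 (1.13) and Vim (0.40) had the opposite sign to the differences with it (-1.89 and -1.35).

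Between P8 and P5 cultured cells, with the difference taken within each reporter and averaged, Car2 was higher by 2.75, Clu by 1.76 and Vim by 1.33, Dkk3 by 0.88, Rlbp1 by 0.61 and Cp by 0.31, and Glul differed by -1.30. The P8 cells had 8 days of culture and the P5 cells 5 days, so age and time in culture cannot be told apart here. Thus 3 members were higher and 1 lower by at least 1, against 18.5% and 12.7% of all genes (31.2% in either direction), and the median was 0.88 against 0.05 over all genes. Within pNdrg4 cells alone the members' median was 1.87, and within pSynapsin cells alone -0.38, against 0 over all genes in each. Car2 was detected in 3 of 4 P8 cells and 3 of 9 P5 cells of these groups. The values hung on single cells. Without P8 pSynapsin cell B4 the differences were 1.24 for Car2, 0.08 for Clu, 0.46 for Vim and -2.55 for Glul, and without P8 pSynapsin cell B3 they were 4.26 for Car2, 3.43 for Clu, 2.20 for Vim and -0.05 for Glul. Dkk3 differed by -0.02 without B3 and by 1.77 without B4, Rlbp1 by -0.33 without P8 pNdrg4 cell A1 and 1.54 without A2, and Cp by 1.06 without A1 and -0.43 without A2. Glul's was also below 1 in size without P8 pNdrg4 cell A1 (-0.56) or P5 pNdrg4 cell C6 (-0.97) or D6 (-0.99), and Vim's without P5 pSynapsin cell E1 or E4 (0.97 each).

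Within the pNdrg4 cells Vim had 1270 and 2304 at P8 and 3 to 127 at P5 (difference 3.10). There 45.9% of all genes differed by at least 1, 26.3% higher and 19.6% lower. Within the pSynapsin cells Vim differed by -0.44, with 29 and 2260 at P8 and 18 to 4192 at P5, in a comparison where 45.2% of all genes differed by at least 1, 24.9% higher and 20.3% lower. Dkk3 (2.13 with pNdrg4 and -0.38 with pSynapsin) and Rlbp1 (1.87 and -0.66) also changed sign between reporters. Car2 (3.73 and 1.77), Clu (0.17 and 3.34) and Glul (-1.17 and -1.43) did not, and Cp had 0.62 and 0. The difference between these reporters was not tested. Among the 5 rod genes detected in at least 8 cells, the averaged differences ran from 0.48 for Crx to 2.56 for Sag and Pdc, with 3 to 9 of 13 rod genes per P8 cell and 1 to 8 per P5 cell, and their part in the members' differences was not tested. The other Muller glia genes numbered 2 to 5 of 25 per P8 cell and 1 to 4 per P5 cell.

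**Figure D5:**
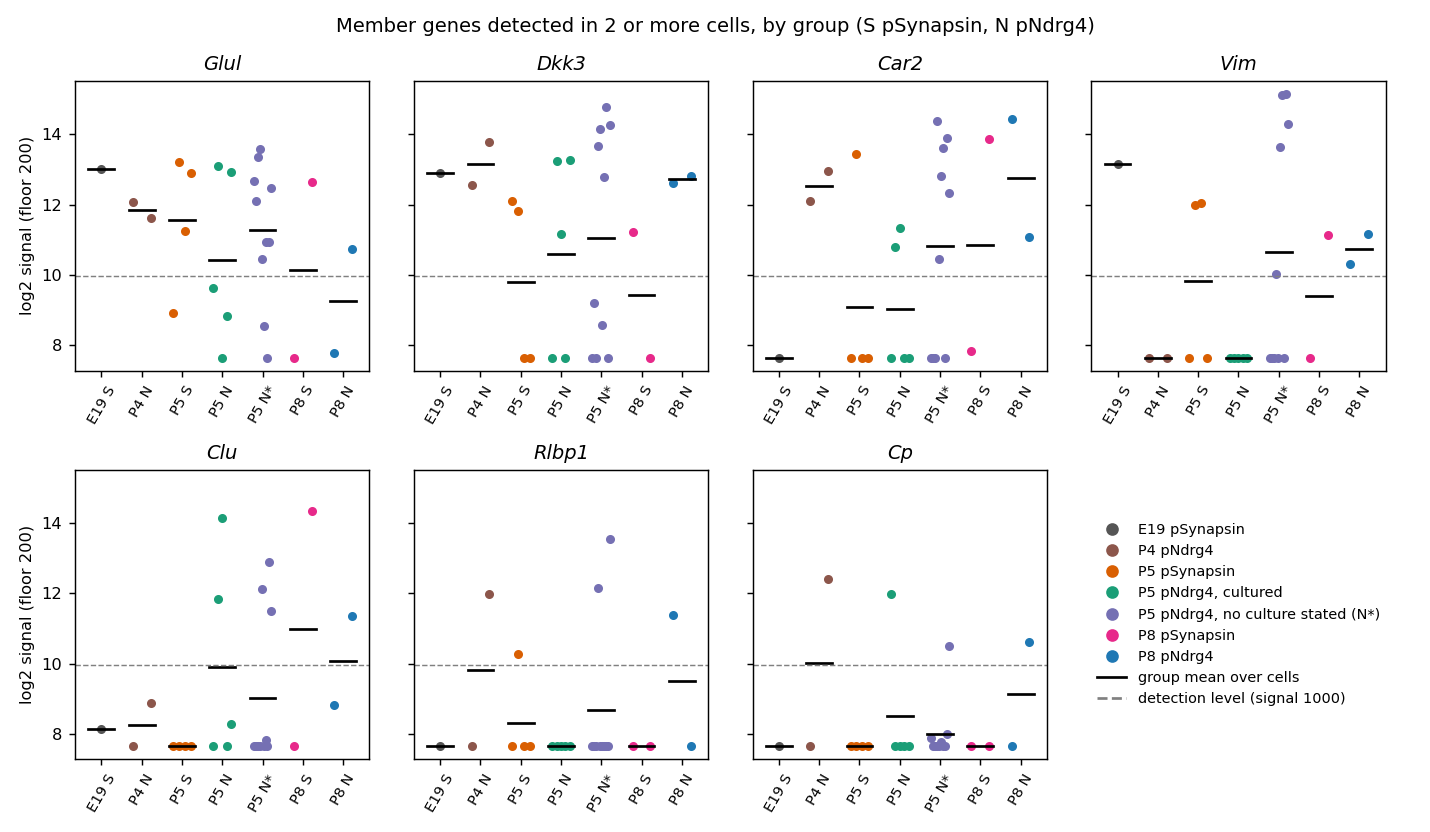
Log2 signal (floor 200, y axis) of the 7 members detected in at least 2 cells, 1 point per cell, by group (x axis, S pSynapsin, N pNdrg4, N* pNdrg4 with no stated culture). Black bars are means over cells and the dashed line is the detection level. Vim lies at the floor in all 5 cultured P5 pNdrg4 cells, and the other members span the floor and high values in most groups of 4 or more cells.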

How the data were processed

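Expression was measured in 26 single cells labelled as amacrine cells, 1 per array. The authors deposited a linear signal intensity for every probe set, and the submitters' processing notes name MAS5 without a version. Each array's mean after trimming 2% from either end equals 500, so no further scaling was applied. Polyadenylated RNA was primed with oligo dT and amplified by 35 PCR cycles per the labels' protocols, so signals lean to transcript 3′ ends and a missed transcript may read as absence. Of 45101 probe sets 34945 named 1 gene, which gave 18193 genes. Signals were raised to 200 and log2 transformed, and detection was set at 1000. Precision is limited by how many arrays there are.

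The members and gene lists were chosen with earlier results of these data known. All 10 members and all 12 amacrine genes are named. Other list genes are named from 8 cells upward, or as defining markers detected in no cell (exceptions, chosen after their values were seen, are marked), and the 3 nearest genes are named for each member detected in at least 4 cells. The steps were tested on simulated data. Computing used scipy 1.17.1, pandas 2.3.3, numpy 2.4.6 and matplotlib 3.10.9 under Python 3.11.15. Alternatives covered detection level, floor, probe set rule, scaling, filter, group medians and leaving out each cell. List genes with no probe set of their own were not analysed here.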

Additional observations from a re-analysis of the deposited data

Results flagged for a closer look

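Dixon's 95% critical value was applied to the highest and the lowest cell of 25 sets of 4 to 10 cells. The gap to the next cell passed it in 9 sets, always at the highest cell. Of the 25 sets 22 were signals of 1 member in 1 group and 3 the number of members per cell. Chance flags about 1 in 20 sets, but that rate does not apply here: in 7 of the 9 every other cell of the group was at the floor of 200, so the gap equals the whole range by construction. In 4 of them the cell was P5 pSynapsin cell E2, with log2 signals of 13.43 for Car2, 10.27 for Rlbp1, 9.42 for Apoe and 8.79 for Slc1a3, the last 2 below the detection level. Cp stood apart at 11.97 in cultured P5 pNdrg4 cell C1 and at 10.49 in cell B4 with no stated culture. Slc1a3 stood apart at 11.37 in A6 with no stated culture. Aqp4 stood apart at 7.76 in cultured cell D6 and at 8.29 in A2 with no stated culture, both below the detection level.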

How the results depend on the processing

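The detection total of 76 ran from 65 to 80 over other detection levels, probe set rules and scalings, and the 14 cells with 3 or more members from 13 to 16. Without B1 and B4 of the P5 group with no stated culture, an alternative chosen after seeing the data, there were 65 detections, 12 such cells and a median culture difference of -0.56. At a detection level of 2000 Glul was detected in 14 cells, Car2 in 12, Vim in 9 and Cp in 2, and at 500 Apoe in 1. Cp was detected in 0 cells with the median probe set, and Slc1a3 in 3 with the highest and 0 with the median probe set. With group medians the members' median difference was 0 for culture and for the P5 reporters. Leaving out single cells gave -1.15 to -0.44 for culture, -0.86 to 0.56 for the P5 reporters, 0.46 to 1.21 for age and -1.87 to 0.40 for the P8 reporters. Without P8 pSynapsin cell B3 the last was 0.40, Car2 1.13 and Vim 0.40, against lowest values of -4.91 for Car2 and -3.10 for Vim without P8 pSynapsin cell B4, and the cause was not tested. The age range is that of the average over reporters, whose separate medians were 1.87 (pNdrg4) and -0.38 (pSynapsin). Of 15 member differences of at least 1 in size, 9 kept direction and size with a floor of 500, 13 with quantile normalization, and 15 with a floor of 50. No paired analysis was possible because the labels give no replicate numbers shared between groups. Signals near the floor limit the rest.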
